A study of Mus musculus with 6 samples.

Results

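Isg15, the gene of the ubiquitin-like modifier ISG15, was studied in MLL-AF9 leukemia cells together with 5 genes of its conjugation cycle, namely Uba7, Ube2l6, Herc6, Trim25 and Usp18. These 6 of the 26384 gene entries in the expression table were taken by their symbols, each symbol stood in exactly 1 entry that holds no other gene, and all 6 were among the 11004 entries with a mean of at least 1 FPKM (fragment counts divided by transcript length and by the mapped fragments of each library). The genes were chosen by symbol, with the difference in their FPKM between treated and control cells already known. Their values under treatment are therefore given below as a description without a test. Other genes of the pathway were tested, but their lists were also chosen with earlier results of these data known.

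The cells were bone marrow progenitors of wild-type mice, transduced with the MLL-AF9 fusion oncogene and co-expressed GFP and passaged through mice repeatedly, that were injected into C57BL/6J recipients. The vehicle group received vehicle only (water in the short sample names, a methyl cellulose solution in the study's methods). The other group received FF-10501-01, an oral inhibitor of the guanine nucleotide enzyme IMPDH, at 160 mg/kg on 2 consecutive days, and GFP+ cells were sorted from bone marrow 48 h after the first dose according to the labels (the RNA-Seq methods give a shorter interval). Each group had 3 libraries, which the study calls biological replicates, from 6 recipient mice in all. They are numbered here by column position in the table, and no number is tied to a mouse.

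ISG15 is attached to lysines of other proteins much as ubiquitin is, in a process called ISGylation. The E1 enzyme UBA7 activates it, the E2 enzyme UBE2L6 carries it, E3 ligases transfer it to the target, and the protease USP18 (UBP43) removes it. HERC6 is the main ISG15 ligase of the mouse, in place of human HERC5, and TRIM25, best known as a ubiquitin ligase that activates the RNA sensor RIG-I, has been reported as a further one. Type I interferon induces these genes through the transcription factor complex ISGF3, which binds the interferon-stimulated response element, and USP18 also binds the interferon receptor chain IFNAR2 and dampens further signaling.

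In GRCm38 the genes lie on 5 chromosomes. Isg15 occupies chr4:156199424-156200818 on the minus strand, and the others are on the plus strand, with Uba7 at chr9:107975505-107984060, Ube2l6 at chr2:84798828-84810335, Herc6 at chr6:57581000-57664632, Usp18 at chr6:121245906-121270917 and Trim25 at chr11:88999376-89020293 (GENCODE M21). RefSeq promoter windows (GRCm38.p6, 250 bases before to 50 after the start) were matched for 5 of the 6 members and searched for the core of the response element (GAAA, then NN, then GAAA), for the STAT site TTCNNNGAA and for the GC box GGGCGG, on both strands. The runs below are the 100 bases before the earlier of the RefSeq and GENCODE starts. They set the only window with a match to the response element core beside the other 4 windows. They are written 5′ to 3′ on the strand of the gene, with capitals marking a match to any of these.
Isg15: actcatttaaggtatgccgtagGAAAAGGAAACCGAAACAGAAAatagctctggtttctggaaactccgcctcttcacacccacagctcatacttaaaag
Uba7: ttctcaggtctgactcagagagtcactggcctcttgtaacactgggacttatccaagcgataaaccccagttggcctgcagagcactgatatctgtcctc
Ube2l6: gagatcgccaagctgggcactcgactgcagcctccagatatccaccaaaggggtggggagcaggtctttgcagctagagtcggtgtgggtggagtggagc
Herc6: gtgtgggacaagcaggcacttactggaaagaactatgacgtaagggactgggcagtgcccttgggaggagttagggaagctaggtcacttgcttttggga
Trim25: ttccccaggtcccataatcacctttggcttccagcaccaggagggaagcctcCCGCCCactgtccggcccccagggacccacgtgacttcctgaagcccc
These runs are chr4:156200819-156200918 (minus strand), chr9:107975405-107975504, chr2:84798728-84798827, chr6:57580892-57580991 and chr11:88999276-88999375 (plus strand). In the Isg15 promoter 3 overlapping copies of the response element core began 78, 72 and 66 bases before the start and formed the single capital run. None of the other 4 windows held this motif, and none of the 5 held TTCNNNGAA. The response element core was found in 3.44% of all 32851 promoter windows and in 22 of 48 windows (45.8%) of other interferon-stimulated genes, while TTCNNNGAA was found in 8.30% and GGGCGG in 35.7% of all windows. GGGCGG had 2 matches in the window of Trim25, one of them in the run above as its complement CCGCCC and one nearer to the RefSeq start, and 1 match in that of Ube2l6, just after the start. A match is a string of letters only, and binding was not measured.

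The modifier itself showed the largest difference of the 6. In vehicle-treated cells Isg15 was at 16.6, 30.5 and 29.8 FPKM in replicates 1, 2 and 3, and in FF-10501-01-treated cells at 51.9, 45.4 and 51.2 FPKM. All treated libraries were above all vehicle libraries, and vehicle replicate 1 stood well below the other vehicle libraries. The mean went from 25.6 ± 7.86 to 49.5 ± 3.55 FPKM (SD, n = 3 per group), a ratio of 1.93, and the difference of log2(FPKM + 1) was 0.97 with a standard error of 0.20. Counted from the largest increase down, this log2 difference ranked 57 among the 11004 entries tested. Without vehicle replicate 1 the ratio of means was 1.64.

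**Figure D1:**
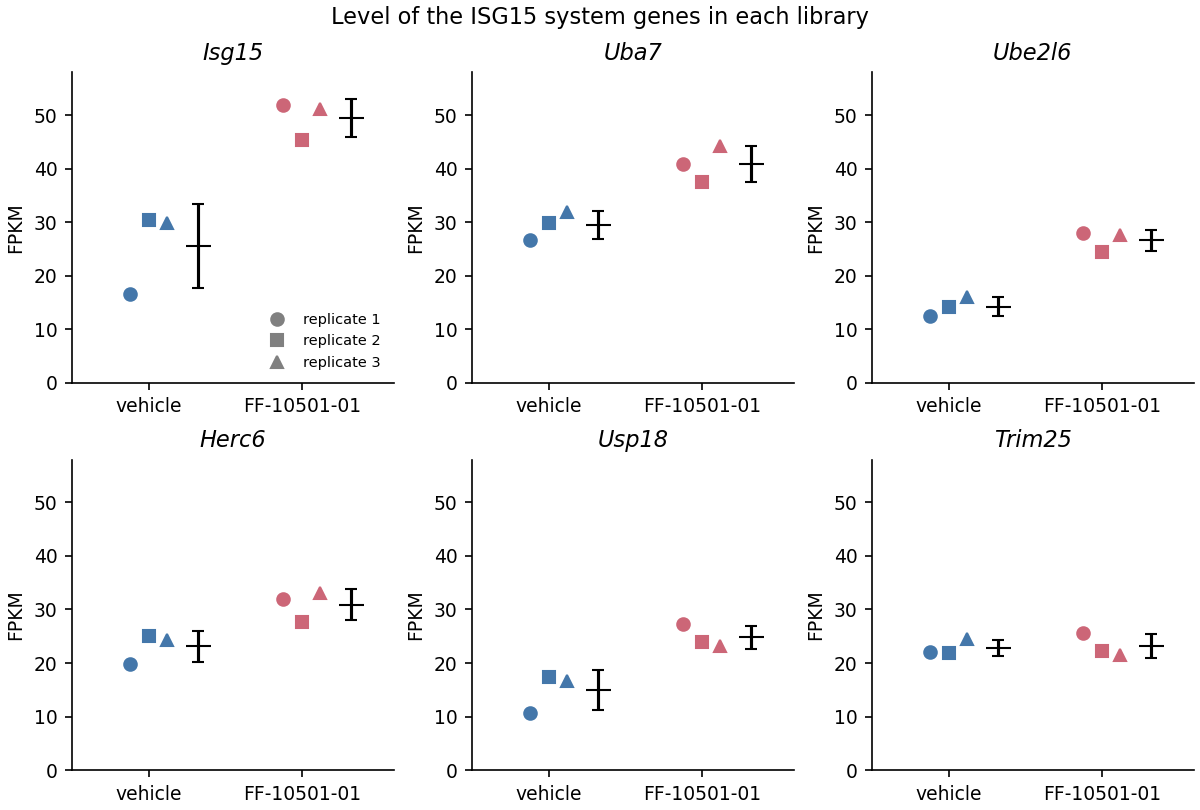
FPKM of the 6 ISG15 system genes in each of 3 vehicle and 3 FF-10501-01 libraries (points, shape by replicate number) with the group mean and SD (bars). For Isg15, Uba7, Ube2l6, Herc6 and Usp18 every treated point lies above every vehicle point, while for Trim25 the groups overlap (21.8 to 24.5 FPKM in vehicle, 21.5 to 25.7 FPKM in treated libraries).

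The enzymes that activate and carry ISG15 were both higher in treated cells, the E2 by a larger factor than the E1. Ube2l6 was at 12.4, 14.2 and 16.1 FPKM in the vehicle libraries and at 28.0, 24.4 and 27.6 FPKM in the treated ones. Its groups were apart, with the lowest treated value 1.52 times the highest vehicle value, the widest such gap of the 6 genes. The means were 14.3 ± 1.84 and 26.7 ± 1.95 FPKM, a ratio of 1.87 (log2 difference 0.86, standard error 0.09). Uba7, the only E1 for ISG15, was at 26.6, 29.9 and 31.9 FPKM in vehicle-treated and at 40.8, 37.6 and 44.2 FPKM in FF-10501-01-treated cells. The groups did not overlap here either. The means of Uba7 were 29.5 ± 2.67 and 40.9 ± 3.34 FPKM, a ratio of 1.39 (log2 difference 0.46, standard error 0.08). In FPKM, which is scaled by transcript length, there were 48.3 ± 1.99 Ube2l6 per 100 Uba7 in vehicle-treated cells and 65.3 ± 3.14 in treated cells, with ranges of 46.7 to 50.5 and 62.3 to 68.6.

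The ligases differed from each other. Herc6 was at 19.8, 25.1 and 24.3 FPKM in the vehicle libraries and at 32.0, 27.6 and 33.2 FPKM in the treated libraries, so that the groups were apart by the smallest gap among the 5 genes that did not overlap, 1.10 between the lowest treated and the highest vehicle value. The means were 23.1 ± 2.87 and 30.9 ± 2.90 FPKM, a ratio of 1.34 (log2 difference 0.41, standard error 0.10). Trim25 was at 22.1, 21.8 and 24.5 FPKM in vehicle-treated and at 25.7, 22.3 and 21.5 FPKM in FF-10501-01-treated cells. Here the highest library and the lowest library of all 6 were both treated ones. Its means were 22.8 ± 1.45 and 23.2 ± 2.19 FPKM (log2 difference 0.02, standard error 0.08), and the difference lay between -0.05 and 0.07 when single libraries were left out, so its sign depended on the libraries used. Herc6 per 100 Uba7 ranged from 74.5 to 84.0 in vehicle-treated and from 73.6 to 78.4 in treated cells, and these ranges overlapped.

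Usp18, the protease that ends ISGylation, was at 10.7, 17.4 and 16.7 FPKM in the vehicle libraries and at 27.3, 23.9 and 23.1 FPKM in the treated libraries. As for Isg15, all treated values were higher and vehicle replicate 1 was the lowest library by a wide margin. The means were 15.0 ± 3.69 and 24.8 ± 2.23 FPKM, a ratio of 1.66 (log2 difference 0.72, standard error 0.16), and the ratio was 1.45 without vehicle replicate 1. Relative to Isg15 RNA, Usp18 RNA was lower in treated cells. In FPKM there were 59.3 ± 4.68 Usp18 per 100 Isg15 in vehicle-treated cells (range 56.0 to 64.6) and 50.1 ± 4.27 in treated cells (range 45.2 to 52.6). The proteins and ISG15 conjugates were not measured.

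For 5 of the 6 members, all but Trim25, the lowest treated library was above the highest vehicle library, whereas 17.6% of the 11004 entries tested were higher without overlap and 38.8% were apart in either direction. Because the members were listed with this contrast known, nothing is read from that count. The median log2 difference of the members was 0.59, beside -0.01 over all entries tested. It lay between 0.45 and 0.66 when each library was left out in turn, and all 5 genes other than Trim25 kept a ratio above 1.2 in each of those settings.

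**Figure D2:**
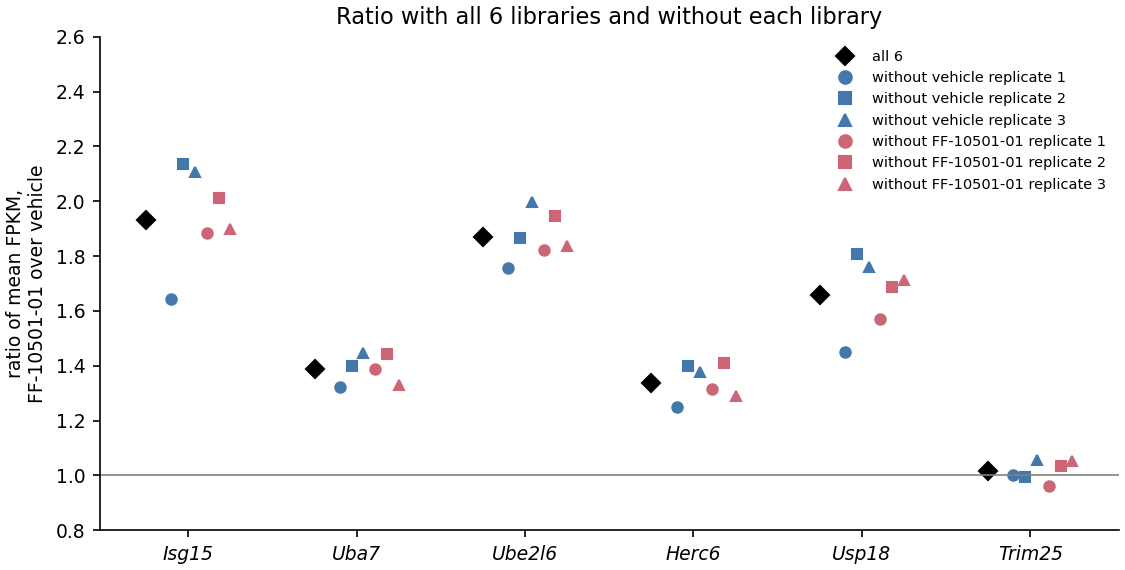
Ratio of mean FPKM (FF-10501-01 over vehicle, linear axis that does not start at 0) for each ISG15 system gene with all 6 libraries (black) and without each single library (blue, vehicle libraries; red, treated libraries). The lowest ratio of Isg15, 1.64, and of Usp18, 1.45, was the one without vehicle replicate 1, while Trim25 stayed between 0.961 and 1.05.

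The order of the levels, which FPKM allows to be set side by side, differed between the groups. In vehicle-treated cells Uba7 was highest, followed by Isg15, Herc6, Trim25, Usp18 and Ube2l6, and the only neighbours whose ranges were apart were Trim25 and Usp18. Neighbours among the first 4 genes were not apart beyond their spread, although Uba7, at 26.6 to 31.9 FPKM, lay above all values of Herc6 and Trim25, and Usp18 and Ube2l6 overlapped as well. In FF-10501-01-treated cells Isg15 came first, above Uba7 in all 3 libraries and with ranges apart, and Uba7 in turn was apart from Herc6. From there the order was Herc6, Ube2l6, Usp18 and Trim25. Each of these neighbours had overlapping ranges, but the order was the same within each of the 3 treated libraries. Added up, the 6 genes came to 130 ± 19.2 FPKM under vehicle and to 196 ± 12.9 FPKM under FF-10501-01. Isg15 made up 19.3% ± 3.54 of the sum in vehicle-treated cells, with 15.3% in replicate 1, and 25.3% ± 0.218 in treated cells.

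Libraries of the same group were compared next, as a description, since a low vehicle library also enters the contrast that was known when the genes were listed. Vehicle replicate 1 had the lowest vehicle value for 5 of the 6 members, a place it took for 33.2% of the 11004 entries tested. Isg15 was there at 0.549 times the mean of the other vehicle libraries, Usp18 at 0.627, Herc6 at 0.801, Ube2l6 at 0.820 and Uba7 at 0.861, while Trim25 was at 0.955. Isg15 and Usp18 also had the largest vehicle coefficients of variation, 30.7% and 24.7%, and these were 7.17% and 8.98% among treated libraries. Among the 61 other interferon-stimulated genes tested, 54 were lowest in vehicle replicate 1, with a median log2 distance of -0.30 from the other vehicle libraries, beside 0.01 over all entries. FF-10501-01 replicate 2 was the lowest treated library for 4 members and for 44 of those 61 genes, by a median log2 distance of -0.13, and for 3145 of all 11004 entries.

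**Figure D3:**
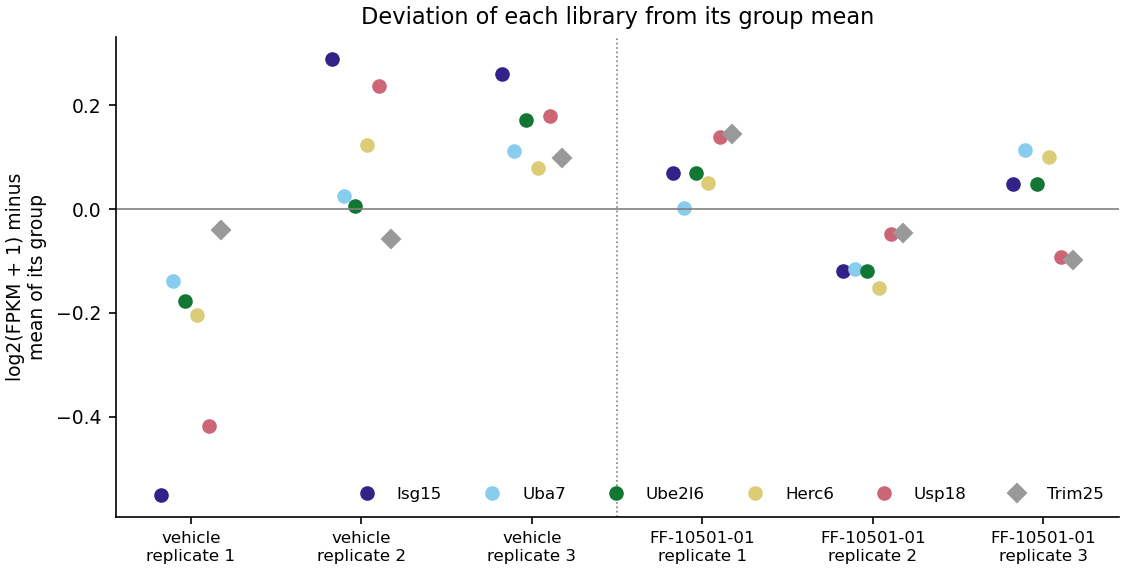
Deviation of log2(FPKM + 1) from the mean of its own group for the 6 genes in each library, vehicle on the left and FF-10501-01 on the right of the dotted line. The 5 genes other than Trim25 (circles) all lie below their mean in vehicle replicate 1 and in FF-10501-01 replicate 2, and Isg15 and Usp18 lie farthest from it in vehicle replicate 1.

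Across the 6 libraries the deviations from the group means of the 10 pairs among Isg15, Uba7, Ube2l6, Herc6 and Usp18 had a Pearson's r of 0.60 to 0.95, with a median of 0.84. The closest pair was Isg15 with Usp18. The 5 pairs with Trim25 had an r of 0.18 to 0.56. All pairs share the same 6 libraries and their scaling, so these values describe the libraries only. Vehicle replicate 1 carried much of them, as without it (n = 5) the 10 pairs ranged from -0.24, for Uba7 with Usp18, to 0.96, for Isg15 with Herc6, and Isg15 with Usp18 came to 0.44. The within-group profile of the members was matched most closely by Lgals3bp, which encodes a secreted galectin-binding glycoprotein (r = 0.999), followed by Mboat7, Maged1, Metrn, Pofut2, Selplg, 1110019D14Rik and Tmem87a (r of 0.987 to 0.996). Over all 6 libraries with the group difference kept in, Lgals3bp was again first (r = 0.997), and then came Gm20559, Mboat7, Traf2, Iffo2, Rtp4, Oasl2 and Tor3a (r of 0.988 to 0.995). Lgals3bp, Rtp4, Oasl2 and Tor3a also stand in the list of other interferon-stimulated genes below. Lgals3bp was at 57.9, 72.8 and 77.4 FPKM in the vehicle libraries and at 108, 91.0 and 102 FPKM in the treated ones. These are the highest of 11004 values of r over 6 points each, and they were not tested.

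Genes of the pathway other than the members were tested with limma, with Benjamini-Hochberg adjustment over all 11004 entries, in which 7.43% were called higher and 7.46% lower at an adjusted p under 0.05. Rescaling the FPKM to TPM turned the 818 higher and 821 lower calls into 1008 and 667. Of the interferon receptor and ISGF3 pathway, 6 of 17 genes rose and 0 fell, with a median log2 fold change of 0.19. Before adjustment 1 was lower (limma, p under 0.05). Whether this pathway drove the members in these cells was not tested. Irf7, the transcription factor that amplifies interferon production, rose from 68.1 ± 13.7 to 118 ± 7.05 FPKM (limma, log2 difference 0.80, adjusted p = 0.0131). Its vehicle replicate 1, at 52.3 FPKM, was also below the other vehicle libraries, at 76.1 and 75.9 FPKM. Subunits of ISGF3 rose too. Stat2 went from 19.6 ± 1.33 to 29.5 ± 2.55 FPKM (limma, adjusted p = 0.00847) and Irf9 from 35.7 ± 2.91 to 43.6 ± 0.285 FPKM (limma, adjusted p = 0.0234). Irf7, Stat2 and Irf9 also stand in the list of other interferon-stimulated genes below. Further genes that rose included Irf3 and Ptpn6, which encodes the phosphatase SHP-1. Ifnar2, the receptor chain that USP18 binds, was at 89.0 ± 6.03 and 97.8 ± 2.46 FPKM (limma, adjusted p = 0.119). Without FF-10501-01 replicate 3 the calls of Irf7 (limma, adjusted p = 0.0524) and Irf9 were lost and 1 gene of the list was left, and without FF-10501-01 replicate 2 there were 3. Over all alternatives the adjusted p lay between 0.00999 and 0.0524 for Irf7 and between 0.0188 and 0.0830 for Irf9.

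The ligands upstream of this pathway were near the limit of detection. Of 21 interferon genes listed, 17 had an entry and none of these passed the filter on low values. The highest value of any of them in any library was 0.243 FPKM, for Ifnz in vehicle replicate 1. Ifnb1, the first type I interferon made by most cells, was listed at 0 in all vehicle libraries and in FF-10501-01 replicate 1, and at 0.0773 and 0.0867 FPKM in FF-10501-01 replicates 2 and 3. Ifng, the type II interferon, was at most at 0.153 FPKM. These values concern the RNA of the sorted cells only.

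Other interferon-stimulated genes were mostly higher in treated cells. Their list leaves out the members but was also chosen with earlier results of these data known. Of 61 tested, 45 rose, 0 fell (2 lower in limma before adjustment, p under 0.05) and 16 did not pass, with a median log2 fold change of 0.43. Ifi27l2a, an interferon-inducible gene, rose from 51.7 ± 8.60 to 99.2 ± 9.29 FPKM (limma, log2 difference 0.94, adjusted p = 0.00847). Samhd1, the dNTP hydrolase that restricts retroviruses, rose from 42.3 ± 4.50 to 66.2 ± 6.29 FPKM (limma, adjusted p = 0.00933), and Oas2, a 2′-5′ oligoadenylate synthetase, rose by a log2 difference of 0.60 (limma, adjusted p = 0.00601). These 3 genes and Stat2 passed under all 14 alternatives tried. Ly6e, by far the most abundant gene that did not pass, was at 773 ± 39.3 and 786 ± 38.0 FPKM (limma, adjusted p = 0.781). The log2 difference of Isg15, 0.97, lay within the range of this list, -0.17 to 1.96, as did those of the other members. The count of 45 came to 25 without vehicle replicate 1, and to 21, 29 and 7 without replicates 1, 2 and 3 of the FF-10501-01 group.

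**Figure D4:**
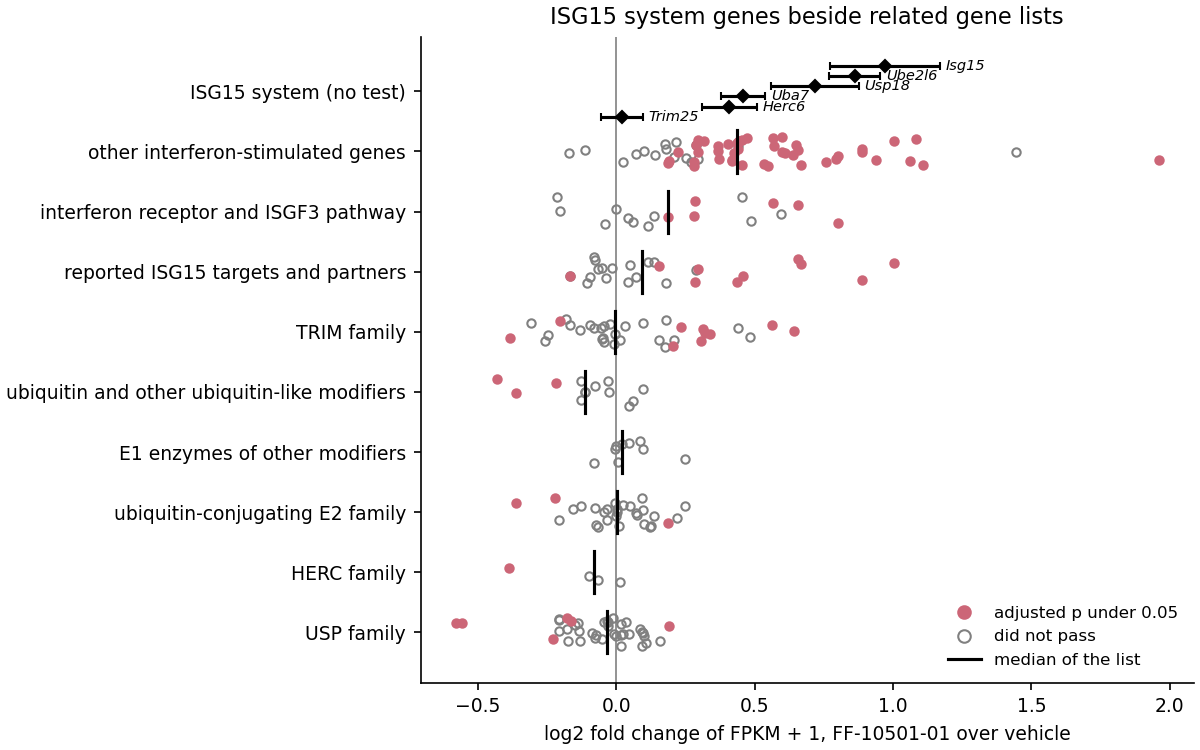
Log2 fold change of FPKM + 1 (FF-10501-01 over vehicle) for the 6 ISG15 system genes (diamonds with standard errors) and for the tested genes of 9 related lists (circles, filled where the adjusted p was under 0.05; vertical bars are list medians). Among other interferon-stimulated genes 45 of 61 circles are filled, all to the right of 0. Over all entries tested 7.43% were called higher and 7.46% lower.

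Proteins that ISG15 has been reported to modify or bind were examined as a further list. Of 26 tested genes 9 rose and 1 fell, with a median log2 fold change of 0.09. The list shares 9 genes with the interferon-stimulated genes, which is 34.6% of this list and 14.8% of the other, and 6 of the 9 that rose were among these. Ifit1, an antiviral RNA-binding protein, rose from 10.3 ± 2.35 to 19.6 ± 1.81 FPKM (limma, adjusted p = 0.0131), a call that was lost without FF-10501-01 replicate 3 (adjusted p = 0.0546, range over the alternatives 0.00999 to 0.0546). Pml, the organizer of nuclear bodies, rose by a log2 difference of 0.30 (limma, adjusted p = 0.0146). Of the 17 genes not shared, 3 rose, namely Irf3, Becn1, which encodes the autophagy factor beclin 1, and Itgb2. The last encodes the beta chain of LFA-1, the integrin through which secreted ISG15 has been reported to signal, and rose from 153 ± 1.84 to 211 ± 14.2 FPKM (limma, log2 difference 0.46, adjusted p = 0.00601, called under all 14 alternatives). Cul1, a cullin scaffold, fell by a log2 difference of -0.17 (limma, adjusted p = 0.0264). Flna, which encodes filamin A, was at 178 ± 10.8 and 196 ± 15.9 FPKM (limma, adjusted p = 0.198). The count of 9 came to 5 and to 1 without treated replicates 2 and 3.

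The corresponding enzymes of ubiquitin and of other modifiers were compared with the members step by step. Among 13 tested genes of ubiquitin and ubiquitin-like modifiers, 3 fell and 0 rose (0 higher in limma before adjustment, p under 0.05), and the median log2 fold change was -0.11. Urm1, a modifier that also thiolates tRNA, fell by a log2 difference of -0.36 (limma, adjusted p = 0.0144), and Rps27a, a ubiquitin fused to a ribosomal protein, fell from 614 ± 34.0 to 527 ± 1.99 FPKM (limma, adjusted p = 0.0210), a call lost in 6 of the 14 alternatives.

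Of the 9 E1 enzymes of other modifiers, 0 passed in either direction (1 higher and 0 lower in limma before adjustment, p under 0.05). Over all entries tested 7.43% were called higher and 7.46% lower, so nothing is read from 0 calls among 9 genes. Uba1, the main E1 of ubiquitin, was at 169 ± 0.720 FPKM in vehicle-treated and 169 ± 2.35 FPKM in treated cells. The E2 family without Ube2l6 had 1 gene higher and 2 lower among 29, with a median log2 fold change of 0.00. Ube2l3, the E2 next of kin to Ube2l6, was at 84.1 ± 2.39 and 84.3 ± 3.05 FPKM (log2 fold change 0.00, standard error 0.04). Ube2e3 and Ube2k fell and Ube2w rose, with log2 fold changes of -0.36, -0.22 and 0.19 (limma, adjusted p = 0.0197, 0.0428 and 0.0380), and each of these calls was lost under several alternatives. Ube2s, the most abundant E2 that did not pass, was at 232 ± 10.8 and 248 ± 6.74 FPKM (limma, adjusted p = 0.188). Of the 4 other HERC genes, Herc3 fell from 4.66 ± 0.617 to 3.32 ± 0.360 FPKM (limma, adjusted p = 0.0406), a call kept in 1 of the 6 settings that leave out a library, and Herc4 was at 18.3 ± 0.867 and 17.4 ± 0.512 FPKM (limma, adjusted p = 0.423). Whether the members differed from these relatives in their response was not tested.

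Several relatives of Trim25 passed the test. Of 35 TRIM genes tested, 8 rose and 2 fell, with a median log2 fold change of -0.0038. Those that rose were Trim11, Trim12a, Trim12c, Trim21, Trim30a, Trim30c, Trim30d and Trim56, and those that fell were Trim28, a corepressor of retroelements, and Trim9. Trim21, the cytosolic antibody receptor, rose from 6.63 to 8.52 FPKM in the vehicle libraries to 11.5 to 12.4 FPKM in the treated ones (limma, log2 difference 0.56, adjusted p = 0.0131), and Trim30d from 12.7 ± 0.690 to 16.3 ± 0.669 FPKM (limma, adjusted p = 0.0150). Trim12a had an adjusted p = 0.0261 and Trim11 an adjusted p = 0.0240, both from limma. The Trim12 and Trim30 genes are close paralogs that can share reads, so the split between them is uncertain. Trim14, the most abundant of the TRIM genes that did not pass, was at 32.4 ± 3.92 and 36.6 ± 1.70 FPKM (limma, adjusted p = 0.176). The count of 8 came to 2 without vehicle replicate 1, 5 without vehicle replicate 3, and 2, 3 and 0 without replicates 1, 2 and 3 of the FF-10501-01 group.

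Among proteases of the USP family other than Usp18, 1 of 39 rose and 5 fell, with a median log2 fold change of -0.04. The shares over all entries tested were 7.43% higher and 7.46% lower. Usp25, which is also induced by interferon, rose from 23.7 ± 0.571 to 27.1 ± 0.0927 FPKM (limma, adjusted p = 0.0276). Usp38, Usp54 and Usp22 fell with log2 fold changes of -0.58, -0.56 and -0.23 (limma, adjusted p = 0.0251, 0.0345 and 0.0335), and so did Usp1 and Usp14. Usp25, Usp38, Usp54, Usp22 and Usp14 each kept the call in at most 2 of the 6 settings that leave out a library. Usp5, reported to react with ISG15 in vitro, was at 56.6 ± 2.82 and 55.2 ± 1.69 FPKM (limma, adjusted p = 0.654). In the list of further reported ISG15 enzymes, 2 of 9 fell and 0 rose (0 higher in limma before adjustment, p under 0.05). They were Usp14, a proteasome-bound protease, by a log2 difference of -0.16 (limma, adjusted p = 0.0445), and Skp2, an F-box protein reported to target USP18 for degradation, with one of -0.28 (limma, adjusted p = 0.0336). Neither call held when any single library was left out.

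The sorted cells were checked against marker lists, beside which 38.8% of all entries tested were apart between the groups in either direction. Unlike those entries, the markers were not filtered on level, and many were below 1 FPKM in all libraries. The share is therefore only a rough guide for them. Of 13 MLL-AF9 leukemia markers, 4 were higher in all treated libraries than in all vehicle libraries, 4 were lower and 5 overlapped, among them Mecom, which was listed at 0 throughout. Hoxa9 (merged with Mir196b), which MLL fusions keep on, was at 189 to 232 FPKM under vehicle and 239 to 255 FPKM under FF-10501-01, and its partner Meis1 was at 65.9 to 67.5 and 63.2 to 64.1 FPKM. The progenitor markers Cd34 and Kit were lower in treated cells (118 to 140 against 76.6 to 99.7 FPKM, and 42.1 to 43.9 against 31.5 to 39.3 FPKM), as was Pbx3, while the myeloid markers Itgam (166 to 171 against 206 to 225 FPKM), Csf1r and Elane were higher.

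The summed neutrophil markers were at 542 to 591 FPKM under vehicle and at 925, 1211 and 1906 FPKM in treated replicates 1, 2 and 3, in which the 6 members summed to 206, 181 and 201 FPKM. Of these 10 markers 7 were higher without overlap and Mmp8, Lcn2 and Retnlg overlapped. The macrophage sum was at 56.2 to 69.6 and 76.6 to 101 FPKM, of which Vcam1 made up 38.1 to 51.1 and 54.9 to 76.4 FPKM. By mass and flow cytometry the study found Vcam1 protein raised on treated MLL-AF9 cells themselves. Vcam1 therefore does not mark macrophages alone in these cells. In that list 5 of 10 markers were higher without overlap and 5 overlapped, among them Cd163, whose highest values were in vehicle libraries. Those that were higher were Vcam1, Slc40a1 and, at trace levels, C1qa, C1qc and Cd5l (at most 0.867, 1.32 and 0.535 FPKM in any library). The dendritic cell sum, nearly all of it Flt3, was lower in treated cells (28.2 to 55.1 against 7.57 to 12.7 FPKM), as was the B cell sum, most of it Cd79b (8.24 to 9.30 against 5.71 to 6.66 FPKM). Of the 6 dendritic cell markers 1, Flt3, was lower without overlap, and 4 overlapped. The remaining 1, Itgax, was higher, at most at 0.851 FPKM. Of the 7 B cell markers 0 were higher, 2 were lower and 5 overlapped. The megakaryocyte and platelet sum was higher (9.90 to 11.0 against 15.7 to 24.4 FPKM), most of it Gp1bb, whose entry is merged with Sept5. Of the 8 markers in that list 2 were higher without overlap, 2 were lower and 4 overlapped. The lower ones were Itga2b and Vwf, at most at 1.18 and 0.172 FPKM. Markers of plasmacytoid dendritic cells, which can express interferon-induced genes strongly, gave sums of 36.4 to 41.9 FPKM under vehicle and 39.9 to 42.0 FPKM under FF-10501-01, almost all of it from Tcf4 and Runx2, while 6 of the 8 were below 1 FPKM and Siglech was listed at 0 throughout. T cell and NK cell markers summed to at most 2.58 and 0.565 FPKM. The part of such cells, or of a shift within the leukemia, in the levels of the members was not tested, and fewer cells of a kind and less RNA per cell cannot be told apart in bulk RNA.

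Sequence shared with other genes limits some of these values. A processed pseudogene, AC151275.1, matched the Isg15 transcript at 95.2% identity over 482 bases, and the table has no entry of that name. Part of the Ube2l6 transcript matched 14 other genes at 85.1% to 96.5% identity over 260 to 509 bases. Uba7 and Herc6 share bases on the same strand with Gm20661 and Gm45193, and Usp18 overlaps the long noncoding RNA Gm44148 on the opposite strand. The kit was strand-specific, but whether strand was used in counting is not given in the sources used here, so reads of Usp18 and of its antisense partner cannot be told apart.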

How the data were processed

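RNA was sequenced as paired-end reads from 6 strand-specific libraries of sorted GFP+ MLL-AF9 cells. According to the submitters' processing notes and the study's methods the authors trimmed reads with cutadapt 1.8.1, aligned them with TopHat2 2.1.1 to GRCm38 and derived gene-level FPKM in Cufflinks 2.2.1, and these deposited FPKM were used as they stand. Read totals are not used here, and depth relative to vehicle replicate 1, from the ratios of values at or below 0.3 FPKM, was 0.986 to 1.25. FPKM summed to 531092 to 551958 per library. No counting interval was computed.

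FPKM were analysed as log2(FPKM + 1) with limma 3.58.1 in R 4.3.3 (eBayes with trend, treatment only, two-sided) over 11004 entries with a mean of at least 1 FPKM. Fold changes on this scale understate changes of low genes. The authors' test, Cuffdiff, needs reads. The method was tested on simulated data with known changes. Pearson's r between libraries was 0.979 to 0.995, and no pair of libraries was a duplicate. The members and the gene lists were chosen with earlier results of these data known. The 11 lists, written from general knowledge, leave out the members. Within each, the text names up to 4 genes with the smallest p that passed and the most abundant that did not, and for counts of 5 or fewer, or to account for a list, further genes chosen after their values were seen. Trim9, Trim28, Trim12c, Trim30a, Trim30c, Trim56, Usp1, Irf3, Ptpn6, Becn1, Cul1, Ifnz, Ifnb1 and Ifng are of that kind. Genes alike in profile are the 8 with the highest r to the mean of the scaled member profiles. Settings varied one at a time were the pseudocount (0.1), the filter (any library above 0, or a mean of 5 FPKM), scaling by the median of ratios, TPM, quantile normalization, eBayes without trend, a replicate block, and the omission of single libraries. Near copies are transcripts of other genes in GENCODE M21 that matched over at least 200 bases at 85% identity (blastn 2.17.0). Some genes of the lists count in the totals and are not reported here by name. Promoter sequences are from RefSeq. Figures used Python 3.11.15, matplotlib 3.10.9, numpy 2.4.6 and pandas 2.3.3.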

Additional observations from a re-analysis of the deposited data

How the results depend on the processing

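The log2 differences of the 6 members moved by less than the spread between replicates under all 14 alternatives, and their median stayed between 0.45 and 0.66. Counts over all entries moved by over 1.5 times without the filter on low values, to 337 higher and 244 lower, and to 512 lower with eBayes without trend. Without the filter 15 of the other interferon-stimulated genes, 5 reported ISG15 targets, 3 genes of the receptor and ISGF3 pathway and 2 TRIM genes were higher, and 0 TRIM genes lower. Of TRIM genes 1 was lower with a filter at 5 FPKM and with TPM, and 0 with eBayes without trend, under which 0 reported targets were lower. The library numbers are column positions, and the labels give no pairing. Deviations of same-numbered libraries had an r of -0.01, -0.07 and -0.04, which cannot settle whether any libraries were paired. With the replicate block 650 genes were higher and 602 lower over all entries, 4 TRIM genes were higher and 1 lower, and 0 reported targets were lower.

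Leaving out single libraries gave 147 to 884 higher and 71 to 789 lower entries, 7 to 44 higher interferon-stimulated genes, 1 to 10 higher and 0 to 2 lower reported targets, 1 to 8 higher and 0 to 2 lower genes of the receptor and ISGF3 pathway, and 0 to 6 higher and 0 to 2 lower TRIM genes. Higher entries came to 147 without FF-10501-01 replicate 3, 239 without vehicle replicate 1, 370 without FF-10501-01 replicate 2 and 372 without vehicle replicate 3, and lower entries to 71, 118, 366 and 310, and to 463 without FF-10501-01 replicate 1. These fits rest on 5 libraries. For the genes named from the lists, 95 results under an alternative lost the call of the full data and 2 gained one. The absolute depth behind single values is unknown.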
